A study of Mus musculus with 2 samples.

Results

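The insulin-like growth factor (IGF) genes described here are the ligands Igf1 and Igf2, the receptors Igf1r and Igf2r, and the binding proteins Igfbp2, Igfbp3, Igfbp4, Igfbp5, Igfbp6 and Igfbp7. They were taken as every probe set of an Affymetrix mouse array whose only gene symbol in the platform annotation is one of these 10 names, which gave 28 probe sets, out of 34945 probe sets with 1 symbol for 18193 genes. A probe set is a group of short probes against 1 transcript. The study compared mouse embryonic fibroblasts homozygous for Phc2 L307R (genotype Phc2 L307R/L307R) with wild type fibroblasts, both of the strain C57BL/6, isolated at embryonic day 12.5 and used at passage 1. Phc2 belongs to Polycomb repressive complex 1, which holds developmental genes silent, and the series' title ties polymerization of its SAM domain to the clustering of that complex in the nucleus. RNA of each genotype was hybridised to 1 array, so 2 arrays stand behind every value, no value has a replicate, and no test between the genotypes was possible. The labels do not say how many embryos or cultures gave each RNA, and each difference is one between 2 arrays.

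IGF1 and IGF2 are secreted growth factors that act through the tyrosine kinase receptor encoded by Igf1r. The receptor encoded by Igf2r has no such kinase. It carries IGF2 to the lysosome for breakdown and also sorts lysosomal enzymes that bear mannose 6-phosphate. The binding proteins hold the ligands in the extracellular fluid and matrix, and proteases that cut the binding proteins set the ligands free. In the mouse Igf2 is expressed mainly from the paternal allele and Igf2r mainly from the maternal one, and both are well known regulators of embryonic growth.

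Promoter windows of 4 members are shown, each reaching from 250 bases before to 50 bases after an annotated start, with sequences from RefSeq for the build GRCm38.p6. Igfbp2 and Igfbp5 are shown because they had the highest log2 ratios at their main probe sets and are neighbours on chromosome 1, with no annotated gene between them and on opposite strands. Igf2r is shown because it held the highest ratio of any member probe set, and Igf1r because its main probe set had the lowest ratio of the main probe sets. Capitals mark the GC box GGGCGG, the TATA box TATAAA and the E-box CACGTG, each searched on both strands. No motif overlapped one of another kind in these windows.
Igfbp2: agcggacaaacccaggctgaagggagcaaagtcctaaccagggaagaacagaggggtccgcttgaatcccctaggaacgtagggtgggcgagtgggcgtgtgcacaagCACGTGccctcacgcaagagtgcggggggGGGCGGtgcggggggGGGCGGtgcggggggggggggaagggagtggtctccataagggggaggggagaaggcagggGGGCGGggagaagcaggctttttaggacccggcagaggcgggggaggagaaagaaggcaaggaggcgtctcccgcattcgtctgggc
Igfbp5: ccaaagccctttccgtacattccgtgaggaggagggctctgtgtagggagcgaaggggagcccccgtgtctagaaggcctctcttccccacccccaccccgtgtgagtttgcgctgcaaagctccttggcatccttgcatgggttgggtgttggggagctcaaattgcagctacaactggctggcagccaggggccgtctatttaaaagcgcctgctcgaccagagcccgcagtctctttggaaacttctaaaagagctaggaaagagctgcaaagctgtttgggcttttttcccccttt
Igf2r: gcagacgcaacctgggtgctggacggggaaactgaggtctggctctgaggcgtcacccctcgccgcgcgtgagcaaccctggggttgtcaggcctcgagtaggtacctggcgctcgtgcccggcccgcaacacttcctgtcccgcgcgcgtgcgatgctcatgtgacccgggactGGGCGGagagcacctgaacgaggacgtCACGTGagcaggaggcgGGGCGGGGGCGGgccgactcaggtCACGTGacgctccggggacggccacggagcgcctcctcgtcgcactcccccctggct
Igf1r: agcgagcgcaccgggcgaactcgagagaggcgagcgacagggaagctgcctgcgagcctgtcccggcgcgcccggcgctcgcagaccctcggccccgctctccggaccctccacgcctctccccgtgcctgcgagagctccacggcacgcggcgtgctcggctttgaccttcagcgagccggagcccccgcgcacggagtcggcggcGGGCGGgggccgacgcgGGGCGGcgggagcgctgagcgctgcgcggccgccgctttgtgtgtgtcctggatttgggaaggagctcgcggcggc
The windows are chr1:72824230-72824529 on the plus strand for Igfbp2, chr1:72874816-72875115 on the minus strand for Igfbp5, chr17:12769657-12769956 on the minus strand for Igf2r and chr7:67952007-67952306 on the plus strand for Igf1r.

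The window of Igfbp2 held 3 GC boxes and 1 E-box, that of Igf2r 3 GC boxes and 2 E-boxes, that of Igf1r 2 GC boxes, and that of Igfbp5 none of the motifs. CpG dinucleotides numbered 18 in the Igfbp2 window, 10 in that of Igfbp5, 34 in that of Igf2r and 48 in that of Igf1r, against a median of 7 over all 32851 windows of the same length. All 10 members matched the table, with 14 windows in all, 4 of them for Igf2 and a second for Igfbp2. A GC box was found in 6 of these 14 windows and in 35.7% of all windows. A TATA box was found in 2 of the 14 and in 13.6% of all, and an E-box in 2 of the 14 and in 7.15% of all. A match describes letters in a window only.

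At its main probe set, meaning the brightest by the mean of both log2 signals, every member had a higher signal in Phc2 L307R than in wild type. The log2 ratios, Phc2 L307R over wild type, ran from 0.11 for Igf1r to 0.95 for Igfbp2, with a median of 0.59. No member reached a 2-fold difference. The same median over all 11408 measured genes was 0.06, and 59.1% of those genes had a ratio above 0. A gene was called measured when its main probe set lay above a floor of 94.8, the higher of the 2 arrays' medians, on at least 1 array. All 10 members passed on both arrays, and the mean signal of the dimmest main probe set was 747.1. In cultures, a change in how many cells express a gene and a change in its RNA per cell cannot be told apart.

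Few genes of the array differed by a large fold. Of the measured genes, 0.579% were at least 2-fold higher and 0.535% at least 2-fold lower. With a threshold of 1.5-fold, 5 of the 10 members were higher and none lower, namely Igf1, Igf2r, Igfbp2, Igfbp3 and Igfbp5, beside 4.19% of measured genes higher and 3.25% lower. Among the 5401 measured genes at least as bright as the dimmest member, the median log2 ratio was also 0.06, 1.89% were at least 1.5-fold higher and 2.22% at least 1.5-fold lower. The members were chosen with earlier results of these data known, so these counts describe them and test nothing.

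**Figure D1:**
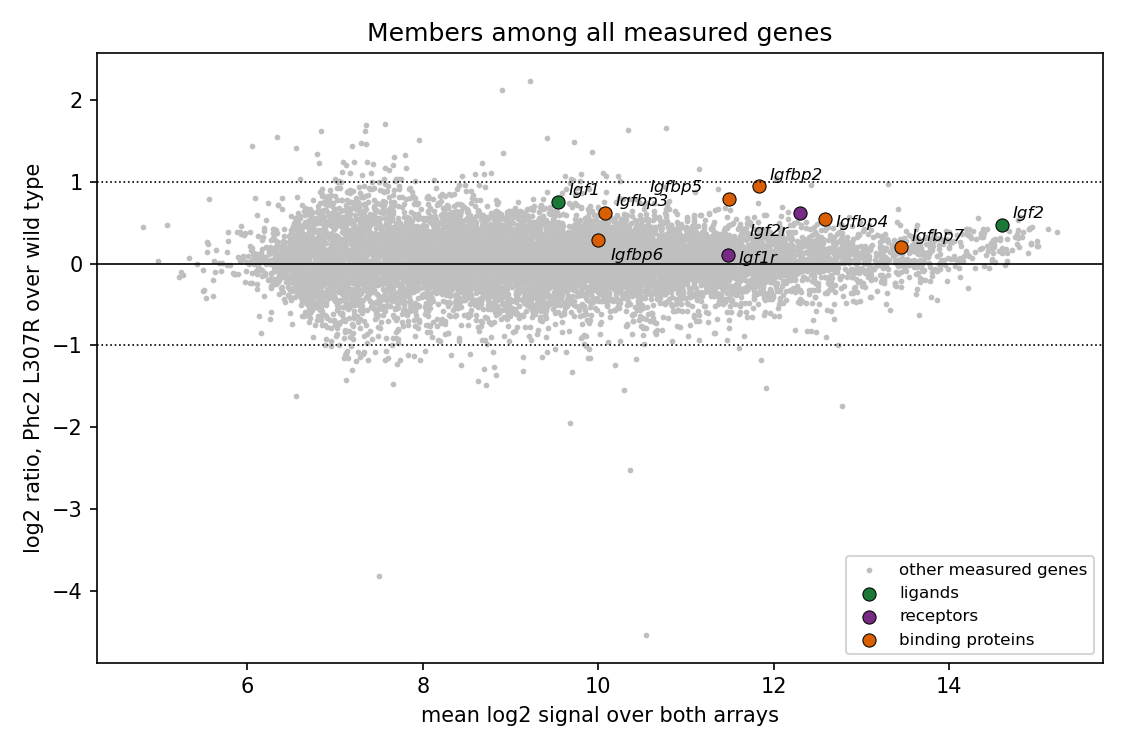
Each point is 1 of 11408 measured genes, with its mean log2 signal over both arrays on the horizontal axis and its log2 ratio, Phc2 L307R over wild type, on the vertical axis. The 10 members are coloured by role and lie above 0, from 0.11 to 0.95, all below the dotted line of a 2-fold difference.

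With no replicate, the only yardstick at hand is the disagreement between probe sets of 1 gene on the same 2 arrays. Differences in culture, RNA, labelling or hybridisation are shared by all probe sets of an array and are not measured by it. For the 5460 genes that had 2 or more measured probe sets, the log2 ratios of probe sets for the same gene had a pooled SD of 0.32, and 45.4% of these genes had the same sign at every measured probe set. The main ratio exceeded 0.32 in 7 of the 10 members, beside 16.8% of measured genes above it. Igf1r, Igfbp6 and Igfbp7 lay within it. The log2 ratios of 10703 genes with signals over the floor in each genotype also had an SD of 0.32. A ratio beyond 0.32 is larger than the SD between probe sets, and whether it would recur in other cultures was not tested. Of the 28 member probe sets 27 were measured, 22 with a higher and 5 with a lower signal in Phc2 L307R, while 54.3% of all measured probe sets with 1 symbol were higher. At least 1.5-fold higher were 10 of the 27, beside 3.87% of all measured probe sets, and none was as much lower, beside 4.79%. At least 2-fold higher were 2 of the 27, beside 0.55%, and none was 2-fold lower, beside 0.984%. In 7 members every measured probe set was higher, with 1 probe set each for Igfbp2 and Igfbp6 and 2 to 6 for the others. The share of all genes with every measured probe set higher was not taken. The 45.4% above counts both signs, and only genes with 2 or more measured probe sets. The signal of a probe set also depends on its probes, so signals are compared between arrays and not between probe sets.

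**Figure D2:**
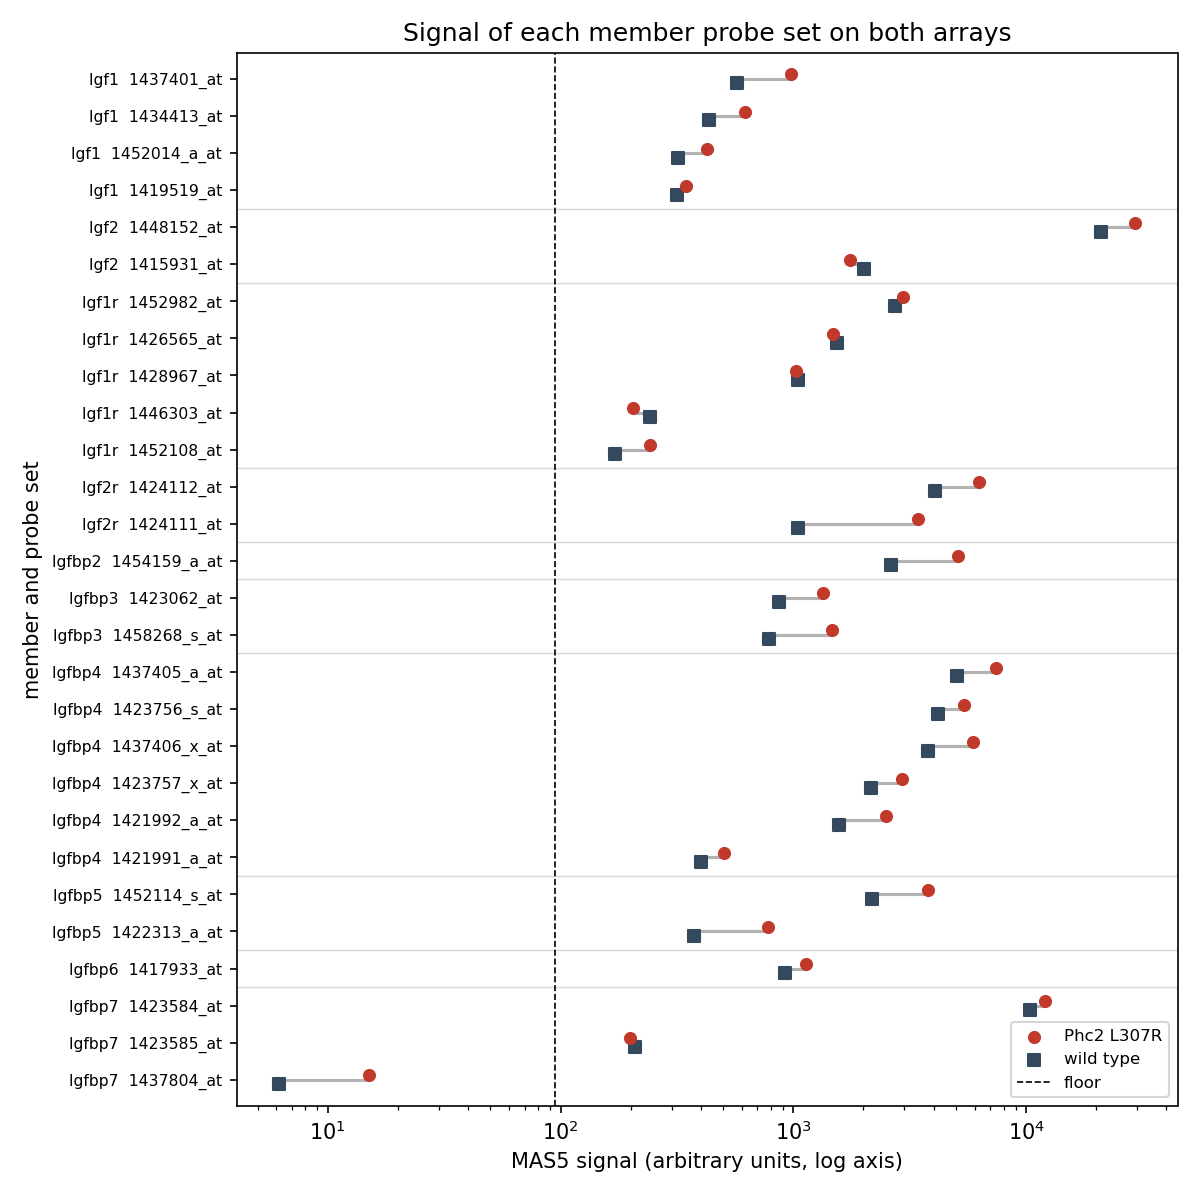
The horizontal axis gives the MAS5 signal in arbitrary units on a log scale, and each line is 1 probe set of a member, with Phc2 L307R as a red circle and wild type as a dark square. The red circle lies to the right of the square in every probe set of Igf1, Igf2r, Igfbp2, Igfbp3, Igfbp4, Igfbp5 and Igfbp6, and only 1 probe set of Igfbp7 lies below the dashed floor at 94.8.

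Of the ligands, Igf1 was higher at each of its probe sets, and the size of the difference varied among them. Igf1 encodes the growth factor that mediates much of growth hormone action after birth and is also made locally by mesenchymal cells. Its main probe set, 1437401_at, read 972.3 in Phc2 L307R and 574.0 in wild type, 1.69-fold higher (log2 ratio 0.76). Only 182 of the measured genes, 1.60%, had a higher ratio. The probe set 1434413_at had 622.4 in Phc2 L307R against 436.1 in wild type (log2 ratio 0.51). At 1452014_a_at the signals were 425.6 in Phc2 L307R and 320.4 in wild type (log2 ratio 0.41). The ratios thus became smaller with the dimness of the probe set, down to 1419519_at, with 344.4 in Phc2 L307R and 315.1 in wild type (log2 ratio 0.13). The mean over the 4 probe sets was 0.45.

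Igf2, the embryonic growth factor, gave opposite signs at its probe sets. The main one, 1448152_at, read 29260.6 in Phc2 L307R and 21026.5 in wild type, a log2 ratio of 0.48. The other, 1415931_at, listed under the same RefSeq accession, had 1748.6 in Phc2 L307R and 2007.7 in wild type, a log2 ratio of -0.20. Their mean was 0.14, and the difference between them is larger than the SD between probe sets of 1 gene. The direction for Igf2 therefore depends on the probe set taken.

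The receptors differed in their ratios. Igf1r, the signalling receptor, had ratios near 0 at its brighter probe sets: 1452982_at had 2956.0 in Phc2 L307R and 2742.4 in wild type (log2 ratio 0.11). At 1426565_at the signals were 1477.9 in Phc2 L307R and 1538.8 in wild type (log2 ratio -0.06), and at 1428967_at they were 1023.3 in Phc2 L307R and 1049.7 in wild type (log2 ratio -0.04). All of these lie well within the SD of 0.32. The dim probe sets gave both signs: 1452108_at had 242.4 in Phc2 L307R and 170.9 in wild type (log2 ratio 0.50), and 1446303_at had 205.5 in Phc2 L307R and 241.0 in wild type (log2 ratio -0.23). With 43.2% of measured genes at a higher ratio, Igf1r stood near the middle of the array.

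Igf2r, the receptor that clears IGF2, was higher at each of its probe sets. The main one, 1424112_at, had 6242.2 in Phc2 L307R and 4053.1 in wild type, 1.54-fold higher (log2 ratio 0.62). The other, 1424111_at, had 3430.1 in Phc2 L307R and 1045.5 in wild type, 3.28-fold higher (log2 ratio 1.71). These ratios agree in sign but differ by far more than the SD between probe sets of 1 gene, so the size of the difference in Igf2r is not settled by these arrays. A further probe set, 1440979_at, is listed under both Airn and Igf2r and was left out. It lay below the floor, with 66.1 in Phc2 L307R and 48.4 in wild type. Airn, the noncoding RNA that overlaps Igf2r in the opposite direction and silences its paternal allele, read 492.8 in Phc2 L307R and 377.8 in wild type at its main probe set (log2 ratio 0.38), and its 4 measured probe sets ran from -0.18 to 0.38.

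**Figure D3:**
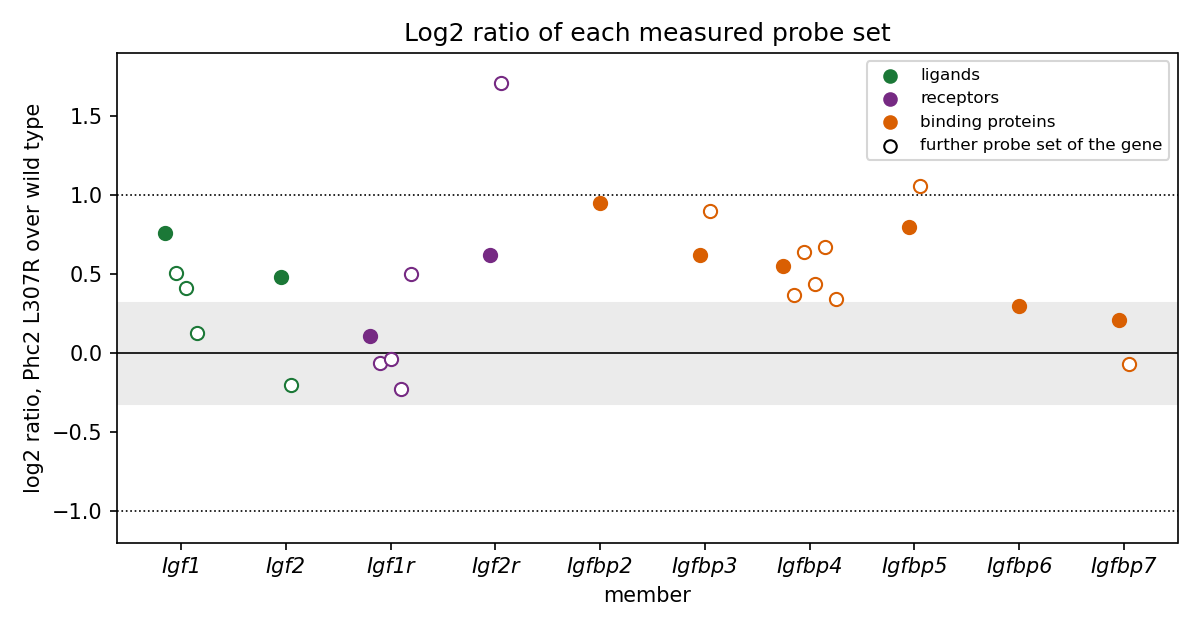
The vertical axis gives the log2 ratio, Phc2 L307R over wild type, of each of the 27 measured probe sets, by member; filled points are main probe sets and open points further ones. The grey band is the SD of 0.32 between probe sets of 1 gene, dotted lines mark 2-fold differences, and 2 probe sets lie above the upper one, those of Igf2r at 1.71 and Igfbp5 at 1.06.

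Of the binding proteins, those of largest ratio were the neighbours Igfbp2 and Igfbp5. Igfbp2 encodes a binding protein abundant in fetal tissues, with a preference for IGF2. Its only probe set, 1454159_a_at, had 5072.1 in Phc2 L307R and 2624.1 in wild type, 1.93-fold higher (log2 ratio 0.95), and 77 measured genes, 0.675%, had a higher ratio. No second probe set bears on this value. Igfbp5 encodes a binding protein that attaches to extracellular matrix and is prominent in bone and muscle. Its main probe set, 1452114_s_at, had 3777.0 in Phc2 L307R and 2175.3 in wild type, 1.74-fold higher (log2 ratio 0.80). The other, 1422313_a_at, had 780.3 in Phc2 L307R and 374.1 in wild type, 2.09-fold higher (log2 ratio 1.06). Both probe sets of Igfbp5 were thus higher by clearly more than 0.32, and they differed from each other by less. Of the windows printed above, that of Igfbp2 held GC boxes and an E-box, and that of Igfbp5 held none of the motifs. The second window of Igfbp2, which is not printed, also held none.

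Igfbp3 and Igfbp4 were higher at every probe set, with smaller ratios than Igfbp2 and Igfbp5 at the main ones. Igfbp3, the main carrier of IGFs in the adult circulation, had 1341.7 in Phc2 L307R and 870.2 in wild type at 1423062_at, 1.54-fold higher (log2 ratio 0.62). At 1458268_s_at it had 1470.0 in Phc2 L307R and 788.4 in wild type (log2 ratio 0.90). Igfbp4, an inhibitory binding protein that the protease PAPP-A cuts, had the most probe sets of the members. Its main one, 1437405_a_at, had 7398.8 in Phc2 L307R and 5057.9 in wild type, 1.46-fold higher (log2 ratio 0.55). The ratios of all 6 ran from 0.34 at 1421991_a_at to 0.67 at 1421992_a_at, with a mean of 0.50. Pairs of these probe sets share a source accession, so they are not independent of each other, yet their direction was the same and every one exceeded 0.32.

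The ratios of Igfbp6 and Igfbp7 were smaller than the SD between probe sets. Igfbp6, which binds IGF2 in preference to IGF1, had 1133.8 in Phc2 L307R and 924.0 in wild type at its only probe set, 1417933_at (log2 ratio 0.30). Igfbp7, a matrix-associated relative with low affinity for IGFs, had 11992.6 in Phc2 L307R and 10401.6 in wild type at 1423584_at (log2 ratio 0.21). At the dimmer 1423585_at the signals were 198.5 in Phc2 L307R and 208.9 in wild type (log2 ratio -0.07). Its last probe set, 1437804_at, was below the floor on both arrays, with 15.0 in Phc2 L307R and 6.2 in wild type, and gave no ratio. Set side by side, the median main ratio was 0.62 for the 2 ligands, 0.37 for the 2 receptors and 0.59 for the 6 binding proteins. Over single measured probe sets the median was 0.44 for the 6 of the ligands, 0.11 for the 7 of the receptors and 0.59 for the 14 of the binding proteins, of which 13 were higher.

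The lists of other genes of the pathway had smaller medians than the members, and none of their main probe sets differed 2-fold, beside 1.11% of measured genes either way. Among proteases of the binding proteins, inhibitors of these proteases and other carriers of IGFs, 8 of 12 were measured. Their median log2 ratio was 0.10, with 5 higher and 3 lower. With the measured probe sets of each gene averaged that median was -0.01. Htra3, a secreted serine protease, had 421.3 in Phc2 L307R and 292.2 in wild type (log2 ratio 0.53). Htra1, a related protease, was at 0.21 and Pappa2, which cuts IGFBP5, at 0.20. Pappa2 had 274.3 in Phc2 L307R against 239.3 in wild type, and Htra1 had 3862.8 in Phc2 L307R against 3347.2 in wild type. The 2 measured probe sets of Htra1 ran from -0.27 to 0.21. Pappa, the protease of IGFBP4, was at 0.06, and its 2 measured probe sets ran from -0.45 to 0.06. Igfbp1, the binding protein of liver, was below the floor with 2.9 in Phc2 L307R and 2.2 in wild type, and Igfals, Igfbpl1 and Adam28 were also below it on both arrays.

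Other secreted proteins with an IGFBP-type N-terminal domain had a median of 0.17 over 10 measured of 12, with 7 higher and 3 lower. Ccn5, a matricellular protein, had 656.9 in Phc2 L307R and 429.2 in wild type (log2 ratio 0.61). Esm1, the proteoglycan endocan, had 277.7 in Phc2 L307R and 405.0 in wild type (log2 ratio -0.54). Htra3 also stands in this list. The spread within it, from -0.54 to 0.61, reached to both sides of 0.

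Genes of insulin and IGF receptor signalling had a median of 0.14 over 29 measured of 34, with 21 higher and 8 lower, at ratios from -0.25 to 0.58. Gab1, a docking protein, had 719.8 in Phc2 L307R and 482.3 in wild type (log2 ratio 0.58), but its 3 measured probe sets ran from -0.14 to 0.58. Pik3r2, a regulatory subunit of phosphatidylinositol 3-kinase, was at 0.50, and Tsc2, a brake on mTOR, at 0.48. Insr, the insulin receptor, had 237.2 in Phc2 L307R and 282.8 in wild type (log2 ratio -0.25), and the substrate Irs1 was at 0.08. Further probe sets of several genes had ratios far from the main one, on either side. In Pik3ca the lowest was -1.16 and the highest 0.13, with the main probe set at -0.10. In Ptpn11 they ran from -0.70 to 0.47, with the main one at -0.06. The highest was 0.63 in Ptpn1, 0.60 in Tsc1 and 0.59 in Sos1, with the main ones at 0.08, -0.15 and 0.02. In Crim1, of the list before, the lowest was -1.37, with the main one at -0.23. Insr, Irs1, Pik3ca, Ptpn1, Ptpn11, Tsc1, Sos1 and Crim1 were picked with their values in view and not by the naming rule.

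At their main probe sets the 6 genes of growth hormone receptor signalling stayed within 0.22 of 0, with a median of 0.08. Their largest main ratios were those of the kinase Jak2 at 0.22, the feedback inhibitor Cish at 0.17 and the transcription factor Stat5a at 0.10. Further probe sets of Ghr, Jak2 and Socs2 reached 0.29. Regulators of Igf2 and Igf1 RNA had a median of 0.23 over 5 measured of 8, with Airn at 0.38, the chromatin protein Hmga2 at 0.32 and the RNA-binding protein Igf2bp1 at -0.24. That median was -0.01 with the measured probe sets of each gene averaged and -0.08 without _x_at and _s_at probe sets. The 4 measured probe sets of Hmga2 ran from -0.49 to 0.32. Genes of mannose 6-phosphate sorting, the other task of Igf2r, had a median of 0.14 over 7 measured of 7. In that list Gnptab, which makes the mannose 6-phosphate tag, had 490.4 in Phc2 L307R and 696.7 in wild type (log2 ratio -0.51), Gga2 was at 0.27 and Gnptg at 0.20. The smaller receptor for the same tag, M6pr, picked with its value in view like Pappa and Igfbp1 above, was at 0.06.

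**Figure D4:**
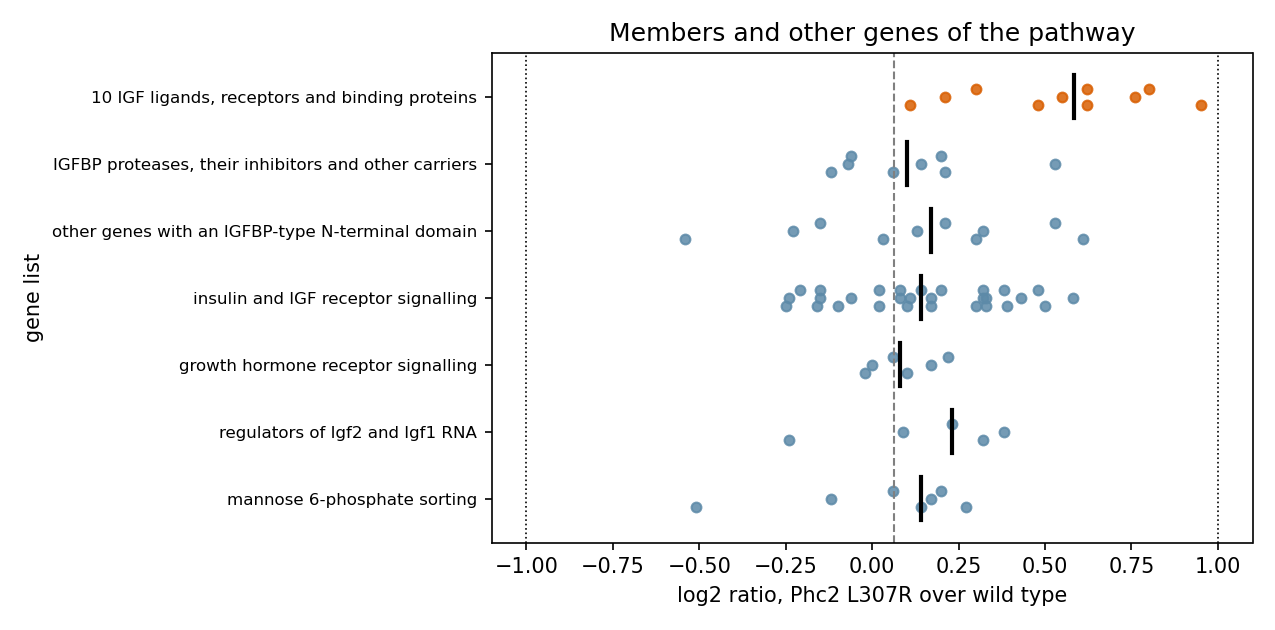
Each point is the log2 ratio, Phc2 L307R over wild type, of a measured gene at its main probe set, by list; black bars are medians, the dashed line is the median of all measured genes at 0.06 and dotted lines mark 2-fold differences. The 10 members have a median of 0.59 and the other lists have medians from 0.08 to 0.23.

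The cultures expressed fibroblast genes. Most measured markers of fibroblasts, chondrocytes, osteoblasts and skeletal muscle were higher in Phc2 L307R, beside 59.1% of all measured genes. All 7 fibroblast markers were measured, with signals of 1608 to 41327 in Phc2 L307R and 1619 to 30907 in wild type. Of these, 6 were higher, and their median log2 ratio over all 7 was 0.42. All 7 chondrocyte markers were measured, 6 of them higher, with a median of 0.80. Their summed signal was 8725.0 in Phc2 L307R and 5817.9 in wild type. The lower one was Sox9 at -0.29, and the highest, Matn1 at 1.62, lay under the floor in wild type. Of the 5 osteoblast markers, Bglap and Runx2 had no entry here and could not be assessed. The 3 with a value were higher, with a summed signal of 1310.7 in Phc2 L307R and 428.4 in wild type. Most of that sum was Ibsp, with 997.6 in Phc2 L307R and 228.8 in wild type. Sp7 lay under the floor in wild type, and Alpl was near the floor there, at 108.6. Of the 5 skeletal muscle markers 4 were measured, with a median of 0.15, and all 5 together summed to 13989.4 in Phc2 L307R and 11278.5 in wild type. All 5 hepatocyte markers, Alb and Afp among them, were under the floor on each array, and so were Pecam1 and Cdh5 of endothelium, Ptprc and C1qa of macrophages, and Epcam, Cdh1 and Krt14 of epithelium. The measured markers of endothelium had a median of 0.05 over 3, those of macrophages 0.55 over 3, those of epithelium -0.21 over 2 and those of neural cells 0.05 over 5. Single markers lay far from these medians. Emcn of endothelium was at -1.15, with 94.9, near the floor, in Phc2 L307R and 210.8 in wild type. Kdr was at 0.05, and Tek, under the floor in wild type, at 0.44. Of the neural markers 3 were higher and 2 lower, among them Map2 at -1.31, with 359.4 in Phc2 L307R and 891.1 in wild type. Summed over all 5 markers of a list, measured or not, the signals were 587.2 in Phc2 L307R and 642.9 in wild type for endothelium, and 541.4 in Phc2 L307R and 398.2 in wild type for macrophages. For epithelium they were 833.4 in Phc2 L307R and 1071.5 in wild type, and for neural cells 2908.1 in Phc2 L307R and 2697.1 in wild type. The fibroblast markers summed to 125806.1 in Phc2 L307R and 92368.5 in wild type, and the hepatocyte markers to 137.4 in Phc2 L307R and 137.2 in wild type. The part of these cell types in the ratios of the IGF genes was not tested. Phc2 itself had log2 ratios of 0.36 and -0.02 at its 2 probe sets; it lies on chromosome 4, which holds none of the members. As a sign of RNA quality, the 3' over 5' signal ratio of Gapdh was 0.721 in Phc2 L307R and 0.791 in wild type.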

How the data were processed

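Total RNA from fibroblasts of each genotype was labelled with biotin as cRNA and hybridised to 1 Affymetrix array each, per the labels' protocols. The authors deposited linear intensity values, 1 signal per probe set and array, for 45101 probe sets. Affymetrix Expression Console and the MAS5 method were used, per the submitters' processing notes; by MAS5, probe pairs are summarised to a signal; the scaling step, versions and probe filters are not given in the sources used here. Without the top and bottom 2%, each array averaged 500.0, so no further scaling was applied. No detection calls stand behind the signals.

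The 64 control probe sets were left out. Symbols of the platform annotation were updated by gene ID through RefSeq's table for GRCm38.p6, which matched 34741 of 34945 probe sets with 1 symbol; that table also gave the order of genes. A gene was represented by its brightest probe set, by the mean of both log2 signals. Signals under the floor of 94.8 were raised to it before ratios were taken. The deposited intensity values were turned to log2, and each difference is the log2 signal in Phc2 L307R less that in wild type, counted at 2-fold. With 1 array per genotype nothing was tested, and the number of arrays limits the precision. The calculation was tested on simulated arrays with planted differences all larger than 2-fold. Differences as small as those at the members' main probe sets were not covered by it. Python 3.11.15, pandas 2.3.3 and statsmodels 0.14.6 were used.

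Named genes were all members with every probe set and, per pathway list, the genes at least 2-fold different or else up to 3 of largest absolute ratio. The members, the lists and the markers were chosen with earlier results of these data known. Alternatives were quantile normalization, loess (span 0.4, 3 iterations), centring, the 40th or the 60th percentile as floor, the floor as a pseudocount or none at all, the mean over probe sets, leaving out _x_at and _s_at probe sets, and thresholds of 1.5-fold and 3-fold.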

Additional observations from a re-analysis of the deposited data

Results flagged for a closer look

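A signal stood outside the member probe sets. Igf2os, the transcript antisense to Igf2, had 355.5 in Phc2 L307R and 295.7 in wild type at its only probe set, 1427394_at, above the floor on both arrays with a log2 ratio of 0.27. This is less than the SD of 0.32 between probe sets of 1 gene.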

How the results depend on the processing

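No paired analysis was possible because each genotype had 1 array. Every main ratio of the 10 members kept its sign under all 9 alternatives that give ratios, as did all 211 ratios of single probe sets under the alternatives that apply to them. Much of this agreement was fixed in advance. No change of floor, nor its use as a pseudocount, can reverse a sign. Leaving out _x_at and _s_at probe sets changed the main ratio of Igfbp5 only. Averaging probe sets could reverse the sign only in Igf1r, Igf2 and Igfbp7, whose measured probe sets had both signs. The signs were thus free to change mainly under quantile normalization, loess and centring. The median of the members was 0.48 to 0.59 and that of the binding proteins 0.52 to 0.63. The counts depended on the setting. None of the members was at least 2-fold higher, against 1 with the mean over measured probe sets (Igf2r, at 1.17), 1 without _x_at and _s_at probe sets (Igfbp5, at 1.06) and 5 at a threshold of 1.5-fold. Of the 2 probe sets with a 2-fold difference, 1 passed with centred ratios, 1 with the floor as a pseudocount and 1 at a threshold of 3-fold, while 10 passed at 1.5-fold. Igf2, at 0.48, was at 0.23 under quantile normalization and at 0.14 when its probe sets were averaged. A move was counted when it exceeded 0.32, the SD between probe sets, since there are no replicates. No setting can stand in for a second culture. Dim probe sets, such as the last of Igfbp7, limit what can be said of single transcripts.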

Other observations

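The nearest measured genes beside the members on the chromosome mostly had smaller ratios than the members, as did most genes of the array. The share of measured genes with a higher ratio than a member ran from 0.675% for Igfbp2 to 43.2% for Igf1r. Smaller ratios beside the members therefore set the neighbours apart from no other genes. Beside Igf1, Nt5dc3 was at a log2 ratio of -0.54 and Parpbp at -0.21, while Igf1 itself was at 0.76. Beside Igfbp4, at 0.55, the topoisomerase gene Top2a was at -0.12 and Smarce1, a chromatin remodelling subunit, at -0.34. Beside Igfbp3, at 0.62, Adcy1 was at 0.31 and Tns3 at 0.14. On the side of Igfbp2 away from Igfbp5, the ribosomal protein gene Rpl37a was at 0.20, and on the side of Igfbp5 away from Igfbp2, Tns1 was at 0.30, against 0.95 for Igfbp2 and 0.80 for Igfbp5. Beside Igf2r, at 0.62, Map3k4 was at -0.47 and Airn at 0.38. Around Igfbp6, at 0.30, the ratios were alike, with Spryd3 at 0.29 and Csad at 0.38. Beside Igf1r, at 0.11, Synm was higher at 0.26, and Fam169b, under the floor in Phc2 L307R, was at -0.07. Beside Igf2, at 0.48, Mrpl23 was at 0.16 and Igf2os at 0.27. Beside Igfbp7, at 0.21, Polr2b was at -0.01 and Adgrl3 at -0.08. These neighbours were named by position alone, several annotated genes without a measured probe set can lie between them and the member, and no comparison between members and neighbours was tested.

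Igf1os, the antisense transcript of Igf1, was below the floor with 4.6 in Phc2 L307R and 45.3 in wild type, so no ratio is given.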
